A study of Mus musculus with 24 samples.

Results

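The synaptonemal complex and the meiotic cohesins are represented by 9 genes: Sycp1, Sycp2, Sycp3, Syce1, Syce2, Tex12, Rec8, Smc1b and Stag3. They were chosen by gene symbol, as structural parts of the complex or cohesin subunits made for meiosis, and are 9 of 19057 genes named on a mouse expression beadchip, with 10 of its 45278 probes. The RNA came from whole testis of mice of an F1 cross between CBA and C57BL/6J, and 6 arrays each were made from wild-type (WT) mice at 15 days, NSun2 knock-out (KO) mice at 15 days, WT mice at 49 days and KO mice at 49 days. NSun2 is an RNA cytosine methyltransferase, and no agent was given to any group. The KO mice came from 2 lines, one made from the gene-trap embryonic stem cell line D014D11 and one carrying Nsun2tm1a(EUCOMM)Wtsi, and the labels neither tie a sample to a line nor say whether arrays came from separate animals. A p-value here therefore measures the spread between samples, which may be technical.

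In meiotic prophase the 2 sister copies of each chromosome are held along a protein axis by cohesin complexes that contain meiotic subunits. REC8 is the ring-closing subunit, SMC1B replaces the general SMC1A and STAG3 replaces STAG1 or STAG2. SYCP2 and SYCP3 coat this axis and become the lateral elements, SYCP1 forms the transverse filaments that zip the paired axes together, and SYCE1, SYCE2 and TEX12 build the central element between them. In the testis these proteins are assembled in spermatocytes, so their transcripts follow how many germ cells have entered meiosis as well as how much of each transcript a cell holds. In RNA from whole testis fewer such cells and less RNA per cell cannot be told apart.

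Of the 9 genes, 7 were bright enough to be tested and 2 were not. Levels are log2 intensities after background correction and quantile normalization, and a probe is called above background on an array where fewer than 1% of the dim control rows were brighter. The single probes for Sycp3 and Tex12 had mean log2 levels of 4.82 and 4.92 over all arrays and were above background on 0 of 24 arrays. This holds for WT testis at both ages, so these 2 probes give no measurement of either gene here. A second, dim Sycp2 probe was above background on 4 of 24 arrays and was not tested. The probes for Sycp2, Rec8, Smc1b and Stag3 were above background on 24 of 24 arrays, those for Sycp1 and Syce2 on 23, missing only KO 49-day replicate D, and that for Syce1 on 20.

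The arrays as a whole held between 16267 and 19051 probes above background, and 12166 genes entered the tests. Nsun2 was above background on 5 of 6 WT arrays at 15 days, on 3 of 6 at 49 days and on none of the 12 KO arrays, and was at least 1.16-fold lower in KO at 15 days (limma adjusted p = 3.06e-04) and at least 1.17-fold lower at 49 days (limma adjusted p = 5.44e-05). Where its probe lies relative to the inserted cassettes is not given in the sources used here, so this checks the labels only in part. Germ cell markers of testis were present, with Ddx4, Dazl, Tex101, Dnd1 and Tdrd1 above background on 24 of 24 arrays, while the probe for Mael was above background on 0. KO 49-day replicate D stood apart from the other 5 arrays of its group. The mean log2 level of these germ cell genes was 8.58 on replicate D against a group median of 10.68, and its Sertoli cell, Leydig cell and macrophage marker means were the highest of the group. For the 7 tested genes, each result that rests on this array is given below with and without it. Marker counts and some results of other gene lists are given only with it.

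**Figure D1:**
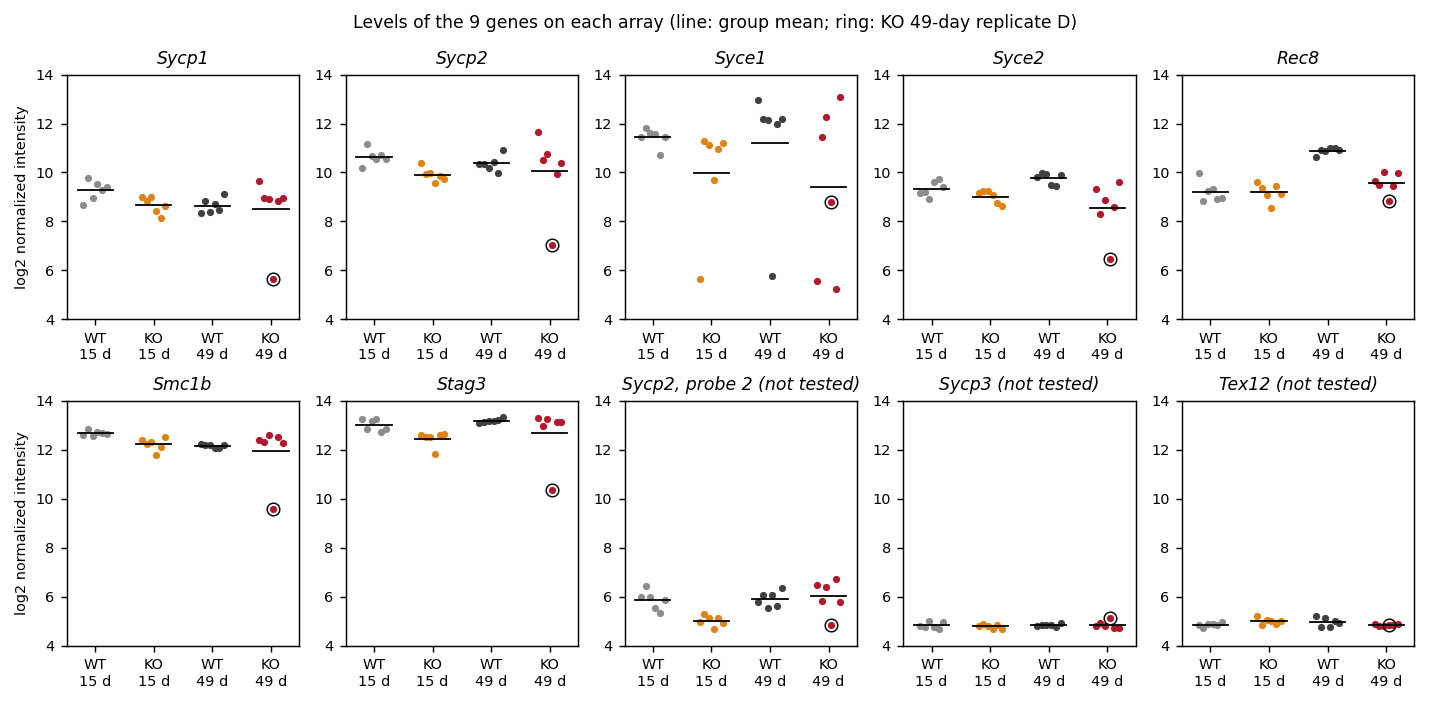
Log2 normalized intensity of each of the 10 probes of the 9 genes (y axis) on the 6 arrays of each group (x axis: WT and KO at 15 and at 49 days). Each point is 1 array, lines are group means and a ring marks KO 49-day replicate D, which is the lowest of its group for 6 of the 7 tested genes; the Sycp3 and Tex12 points lie near 5 in every group.

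At 15 days none of the 7 tested genes passed the threshold between KO and WT (limma, adjusted p under 0.05 over all tested probes; also 0 at an unadjusted p under 0.05), while all 7 had a mean below WT. The same fit called 4.69% of all 12166 genes, 3.59% lower and 1.1% higher, so a count of 0 among 7 does not stand out from that background. The median difference over the 7 genes was -0.56 on the log2 scale, against 0.0043 over all genes. Of all genes 49.3% had a mean below WT, and Rec8 among the 7 was near 0, at -0.0034. The KO and WT arrays did not overlap for Smc1b and Stag3, both lower, which was the case for 6.56% of all genes.

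The transverse filament gene Sycp1 had log2 levels from 8.66 to 9.77 in WT (median 9.34) and from 8.15 to 9.01 in KO (median 8.74). WT replicates A and C, at 8.66 and 8.96, lay inside the KO range, and 3 of 6 KO arrays lay below every WT array. The KO minus WT difference was -0.59 (SE 0.42, 95% interval -1.45 to 0.27, limma adjusted p = 0.513). For Sycp2, of the lateral element, the log2 level ran from 10.16 to 11.16 in WT (median 10.61) and from 9.56 to 10.38 in KO (median 9.91). Of the KO arrays 5 of 6 were below every WT array, and only KO replicate A was inside the WT range. The difference was -0.72 (SE 0.45, limma adjusted p = 0.436) on its tested probe; the second probe was above background on 1 of 6 WT and 0 of 6 KO arrays of this age and gives no comparison.

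Syce2, which bridges the central element along its length with TEX12, had log2 levels from 8.92 to 9.72 in WT (median 9.31) and from 8.61 to 9.26 in KO (median 9.11). These ranges overlapped for most arrays, and the difference was -0.32 (SE 0.33, limma adjusted p = 0.693). The other central element gene, Syce1, is described separately because its arrays fell into separate levels.

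Among the cohesins the log2 level of Rec8 ran from 8.84 to 9.97 in WT (median 9.10) and from 8.55 to 9.62 in KO (median 9.25), and the groups overlapped almost fully. The difference was -0.0034 (SE 0.21, 95% interval -0.43 to 0.42, limma adjusted p = 0.998). Its sign was above 0 on 2 of 4 slides, and 10 of the 36 alternative fits gave a value above 0, up to 0.15. Smc1b was bright and tight, with log2 levels from 12.57 to 12.86 in WT (median 12.66) and from 11.77 to 12.52 in KO (median 12.29). Every KO array was below every WT array, with a difference of means of -0.45 (SE 0.33, limma adjusted p = 0.532). Stag3 showed the same order on the log2 scale, from 12.74 to 13.26 in WT (median 13.01) and from 11.84 to 12.66 in KO (median 12.56), again with every KO array the lower, and its difference was -0.56 (SE 0.33, limma adjusted p = 0.400).

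The spread used for these tests is shared by all 24 arrays, and KO 49-day replicate D widens it although it does not enter the 15-day means. Without that array the differences at 15 days were the same and 3 of 7 genes passed, all lower: Stag3 (SE 0.13, limma adjusted p = 0.00550), Smc1b (SE 0.11, limma adjusted p = 0.00792) and Sycp2 (SE 0.22, limma adjusted p = 0.0351), against 7.98% of all genes lower. Fitting only the 12 arrays compared called the same 3 genes, with limma adjusted p of 0.0194, 0.0190 and 0.00932, against 10.5% of all genes lower. Within the 4 slides, each of which holds all 4 groups, the difference was below 0 on 4 of 4 for Sycp2, Smc1b and Stag3. For Smc1b and Stag3 this follows from the lack of overlap and adds nothing to it. Each slide holds few arrays of a group. For Stag3 the slide values ran from -1.21 to -0.18, for Smc1b from -0.91 to -0.25 and for Sycp2 from -0.98 to -0.20, while a slide block gave -0.66, -0.52 and -0.74, none past the threshold. KO replicate D was the lowest KO array for 4 of the 7 genes, and without it the differences of Stag3 and Smc1b were -0.44 and -0.36.

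Markers of other stages moved on the same arrays, where 3.59% of all genes were called lower and 1.1% higher. Of 9 tested markers of pachytene and later spermatocytes, 5 fell in KO at 15 days (Ldhc, Piwil1, Hspa2, Tdrd5 and Nme5), and their summed normalized intensity was 22569 to 60502 on WT arrays and 4194 to 10836 on KO arrays. Ccna1 and Spag6 of that list were not above background on any 15-day array, and Mybl1 on none of all 24. Of 5 tested germ cell markers 0 passed by limma (2 at an unadjusted p under 0.05), with a median difference of -0.44 on the log2 scale, against -0.56 over the 7 meiotic genes. Their summed intensity was 18942 to 21614 on WT arrays and 9799 to 16551 on KO arrays, every KO array being the lower. Of 7 spermatogonial markers 1 fell (Id4), and of 4 macrophage markers 1 rose (Lyz2), the macrophage list with summed intensities of 1515 to 6142 in WT and 4361 to 12854 in KO. The part of these cells in the values of the meiotic genes was not tested.

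At 49 days Rec8 and Syce2 fell in KO testis, the only 2 of the 7 genes to pass. The background at this age is large: 73.2% of all genes passed, 46.8% higher and 26.5% lower, so 2 of 7 is below the share called overall and near the share called lower. Over all genes 38.6% of the differences were below 0, with a median of 0.30 on the log2 scale. With KO replicate D included all 7 differences of the meiotic genes were below 0, with a median of -0.50. Without that array Smc1b (0.26), Sycp2 (0.29) and Sycp1 (0.42) were above 0, and Stag3 was at -0.03. The median over all tested probes was 0.21 and moved to -0.11 after cyclic loess normalization, so differences at this age are also given relative to the median probe of the same fit. After cyclic loess 4 genes passed, all lower, Smc1b and Stag3 in addition, against 39.3% of all genes lower.

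The meiotic ring-closing subunit gene Rec8 had log2 levels from 10.61 to 11.02 in WT (median 10.93) and from 8.82 to 10.01 in KO (median 9.57). Every KO array was below every WT array, which held for 15% of all genes, and KO replicate C was the highest and replicate D the lowest. Its log2 level fell by 1.33 in KO (SE 0.21, limma adjusted p = 1.06e-05), to 0.398 of that in WT, or -1.54 relative to the median probe. Slide by slide the Rec8 difference was -1.53, -0.76, -1.16 and -1.69, and a slide block gave -1.24. Without KO replicate D it was -1.18 (SE 0.19, limma adjusted p = 1.71e-05). The call held in 24 of 24 fits that leave out 1 array and in the 12 other alternatives, between -1.90 and -1.13 in the latter.

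For Syce2 the log2 level ran from 9.45 to 9.99 in WT (median 9.86) and from 6.49 to 9.61 in KO (median 8.75). Of the KO arrays 5 of 6 were below every WT array, and replicate F, at 9.61, was inside the WT range. The log2 level of Syce2 fell by 1.22 (SE 0.33, limma adjusted p = 0.00228), to 0.428 of that in WT, or -1.43 relative to the median probe. Its slide values were -1.16, -1.02, -0.81 and -1.98, and a slide block gave -1.28. Replicate D moved the size and not the call: without it the difference was -0.81 (SE 0.20, limma adjusted p = 0.00116).

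The other 5 genes did not pass, and for 3 of them the sign rested on replicate D. Smc1b stood between 12.08 and 12.23 on the WT arrays (median 12.18) and between 9.56 and 12.62 on the KO arrays (median 12.36). Replicate D was at 9.56, and the other 5 KO arrays, at 12.28 or more, were all above every WT array. Smc1b differed by -0.22 over all arrays (SE 0.33, limma adjusted p = 0.572) and by 0.26 without replicate D (SE 0.11, limma adjusted p = 0.0453), so both direction and call turned. Relative to the median probe these values were -0.42 and 0.074. Without that array 3 of 7 genes passed, Rec8 and Syce2 lower and Smc1b higher, against 25.3% of all genes lower and 45.7% higher.

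Sycp1 ran from 8.33 to 9.13 in WT (median 8.60) and from 5.66 to 9.67 in KO (median 8.93) on the log2 scale. Only replicate D lay below the WT arrays, and the other 5 stood at 8.84 or above. The difference was -0.14 (SE 0.42, limma adjusted p = 0.773), and 0.42 without replicate D (SE 0.20, limma adjusted p = 0.0707), or -0.35 and 0.24 relative to the median probe. Sycp2 ran from 9.98 to 10.91 in WT (median 10.35) and from 7.03 to 11.65 in KO (median 10.46). Replicate D was the low array and replicate A the high one, and 3 of 6 KO arrays were inside the WT range. Sycp2 differed by -0.32 (SE 0.45, limma adjusted p = 0.541) and by 0.29 without replicate D (SE 0.23, limma adjusted p = 0.273), or -0.52 and 0.099 relative to the median probe.

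Stag3 had log2 levels from 13.08 to 13.35 in WT (median 13.17) and from 10.36 to 13.29 in KO (median 13.13). Apart from replicate D the KO arrays lay between 12.98 and 13.29, and 1 of these 5 was below every WT array. The difference of -0.50 (SE 0.33, limma adjusted p = 0.185) became -0.03 without that array (SE 0.14, limma adjusted p = 0.863), or -0.70 and -0.22 relative to the median probe. The fifth gene, Syce1, is described further on.

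**Figure D2:**
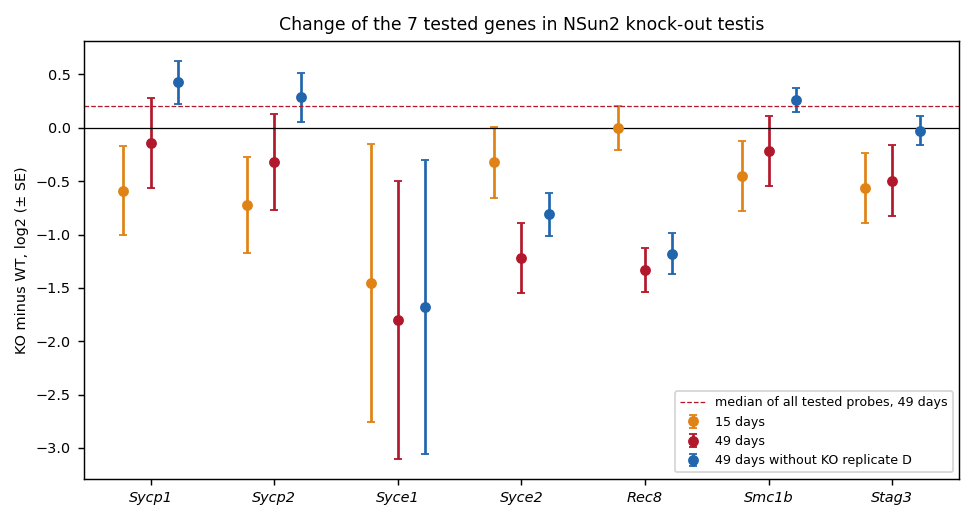
KO minus WT on the log2 scale with SE (y axis) for the 7 tested genes (x axis) at 15 days, at 49 days and at 49 days without KO replicate D; the dashed line is the median of all tested probes at 49 days. Rec8 is at -0.0034 at 15 days and at -1.33 at 49 days, and Sycp1, Sycp2 and Smc1b lie above 0 at 49 days once replicate D is left out.

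On KO 49-day replicate D all 7 genes were lower than the WT mean, from -2.07 for Rec8 to -3.34 for Sycp2 on the log2 scale. Markers of several cell types moved on that array too. Its mean log2 level of pachytene and later spermatocyte markers was 9.69 against a group median of 12.04, and that of spermatid markers 9.61 against 11.54. Its Sertoli cell marker mean, 12.61, was the highest of the KO 49-day group, whose median was 11.69. Over the whole comparison at 49 days 6 of 9 spermatocyte and 9 of 11 spermatid markers fell, and 10 of 10 Sertoli cell, 4 of 5 Leydig cell, 4 of 5 peritubular myoid and 4 of 4 macrophage markers rose. Among germ cell markers 2 of 5 rose and 1 fell, and among spermatogonial markers, which include genes of entry into meiosis, 3 of 7 rose (Kit, Stra8 and Uchl1) and 0 fell. Over all genes 46.8% were called higher and 26.5% lower. These marker counts include replicate D and are not given without it. The summed intensity of the spermatogonial list was 3252 to 4158 on WT and 4664 to 9502 on KO arrays. Its mean log2 level overlapped between the groups, at 7.79 to 8.16 on WT and 7.97 to 9.12 on KO arrays, with replicate D the lowest of the latter. The summed normalized intensity of the Sertoli list was 27775 to 38867 on WT and 60129 to 166560 on KO arrays, and that of the spermatocyte list 178741 to 198847 and 23269 to 178193. The part of these cells in the values of the 7 genes was not tested.

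**Figure D3:**
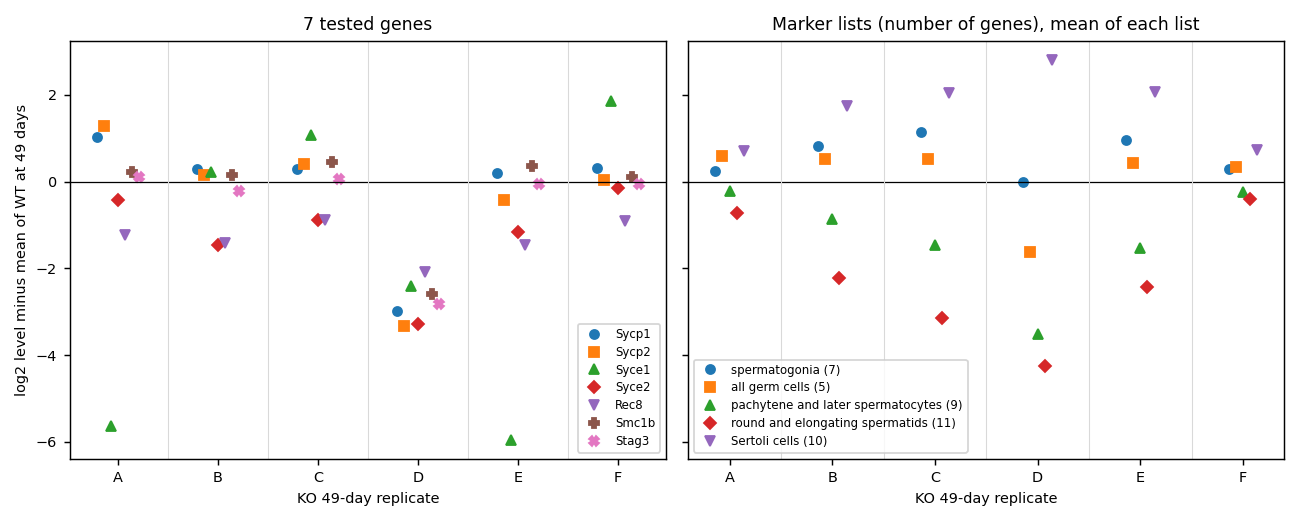
Log2 level of each KO 49-day array (x axis, replicates A to F) minus the mean of the 6 WT arrays of that age (y axis), for the 7 tested genes on the left and for the mean of 5 marker lists on the right. Replicates have no order; on replicate D every tested gene is at least 2.07 below the WT mean, and the Syce1 points of replicates A and E lie near -6.

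The promoters of Rec8 and Syce2, which fell at 49 days, are shown with those of Smc1b and Stag3, whose KO arrays were all below WT at 15 days, to set side by side genes that moved differently. Each is 250 bases before to 50 bases after the annotated start, from RefSeq for the GRCm38.p6 build, 5′ to 3′ on the strand of the gene. Capitals mark matches, on either strand, to 5 short motifs searched: CCTCAG (a core of the sequence bound by the meiotic regulator STRA8), CACGTG (an E-box), GGCGGGA (an E2F core), TGACGT (a cAMP response element core) and AACNGTT (bound by MYB proteins). The windows are chr14:55617916-55618215 on the plus strand for Rec8, chr8:84872008-84872307 on the plus strand for the second of 2 Syce2 starts, chr15:85131908-85132207 on the minus strand for Smc1b and chr5:138280259-138280558 on the plus strand for Stag3.
Rec8: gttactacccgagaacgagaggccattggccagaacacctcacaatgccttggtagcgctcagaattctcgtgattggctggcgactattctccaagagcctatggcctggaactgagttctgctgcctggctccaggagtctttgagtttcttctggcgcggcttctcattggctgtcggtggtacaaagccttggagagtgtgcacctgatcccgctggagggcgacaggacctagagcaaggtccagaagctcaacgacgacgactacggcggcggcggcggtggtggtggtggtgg
Syce2: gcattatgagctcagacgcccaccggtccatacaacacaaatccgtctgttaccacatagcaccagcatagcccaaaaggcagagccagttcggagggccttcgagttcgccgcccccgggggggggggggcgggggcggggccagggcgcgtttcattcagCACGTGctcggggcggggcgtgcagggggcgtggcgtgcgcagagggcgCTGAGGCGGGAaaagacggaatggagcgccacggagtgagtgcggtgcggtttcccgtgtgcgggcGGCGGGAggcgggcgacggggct
Smc1b: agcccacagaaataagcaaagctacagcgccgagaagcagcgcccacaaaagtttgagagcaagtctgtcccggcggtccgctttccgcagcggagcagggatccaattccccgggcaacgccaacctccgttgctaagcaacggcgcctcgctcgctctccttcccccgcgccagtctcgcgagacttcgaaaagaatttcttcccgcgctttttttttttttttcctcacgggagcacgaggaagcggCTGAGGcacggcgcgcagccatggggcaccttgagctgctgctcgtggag
Stag3: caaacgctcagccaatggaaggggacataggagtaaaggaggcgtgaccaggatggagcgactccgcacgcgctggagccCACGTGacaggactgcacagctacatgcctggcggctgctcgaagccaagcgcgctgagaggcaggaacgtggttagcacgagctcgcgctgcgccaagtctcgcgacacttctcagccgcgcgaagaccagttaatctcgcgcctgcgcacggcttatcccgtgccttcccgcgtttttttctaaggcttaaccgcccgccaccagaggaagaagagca

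The Rec8 window held none of the 5 motifs. The second Syce2 window held an E-box 88 bases before the start, a CCTCAG match 39 bases before it, on the other strand, and 2 GGCGGGA matches, one of which overlaps the CCTCAG match. The first Syce2 window held none. Smc1b had a CCTCAG match from the first base of the transcript, also on the other strand, and Stag3 an E-box 170 bases before the start. Over the 9 genes, all of which matched a RefSeq window, CACGTG occurred in 5 (Sycp1, Sycp3, Syce2, Tex12 and Stag3) against 7.15% of 32851 windows, and CCTCAG in 5 (Sycp1, Syce1, Syce2, Tex12 and Smc1b) against 26.8% of windows. GGCGGGA occurred in 2 genes (11.3% of windows), AACNGTT in 1 (4.45%) and TGACGT in 0 (7.51%). A gene was counted when any of its windows matched, while the shares are per window, so the counts and shares are not the same measure. A match describes these letters only, and binding was not measured.

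Syce1 had 2 separate levels, and the lower one was seen in WT and in KO and at both ages. On 4 arrays, KO 49-day replicates E (5.26) and A (5.58), KO 15-day replicate A (5.63) and WT 49-day replicate D (5.76), its log2 level was at the background, and on the other 20 it ran from 8.79 to 13.07. The gap of 3.03 between these sets lies between WT 49-day replicate D and KO 49-day replicate D. Of all 45278 probes, only the Syce1 probe had those 4 arrays at least 2 log2 units below the other 20. Of the 10 genes on each side of Syce1 7 were tested, and none of them had the 4 arrays below the rest. Among these, Olfr538 (5.42 to 6.65) and Urah (5.23 to 6.68) were low on all arrays and could not show such a drop. Odf3 ran from 4.98 to 13.41, so on its own low arrays it could not show one either. The Syce1 group medians were 11.52 in WT and 11.04 in KO at 15 days and 12.16 and 10.11 at 49 days, and KO minus WT was -1.45 (SE 1.30, limma adjusted p = 0.638) and -1.80 (SE 1.30, limma adjusted p = 0.221), the latter -2.01 relative to the median probe. The Syce1 difference at 49 days passed when WT 49-day replicate D was left out (-2.89, limma adjusted p = 0.0338). Without KO 49-day replicate D instead it was -1.68 (limma adjusted p = 0.286). What separates the 4 arrays was not tested.

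The KO effect differed between the ages for Rec8 (49 minus 15 days, a log2 difference of -1.33, SE 0.29, limma adjusted p = 0.00122) and not past the threshold for the other 6 tested genes, where 52.9% of all genes passed, 36% higher and 16.9% lower. Without KO 49-day replicate D 5 genes passed this test, against 54.2% of all genes: Rec8 at -1.18 (limma adjusted p = 0.00126), and in the other direction Smc1b at 0.71 (limma adjusted p = 0.00110), Sycp1 at 1.02 (limma adjusted p = 0.00572), Sycp2 at 1.01 (limma adjusted p = 0.0119) and Stag3 at 0.54 (limma adjusted p = 0.0215). Leaving out KO 49-day replicate F instead gave 2 genes, with Syce2 (limma adjusted p = 0.0340) beside Rec8. These comparisons share their arrays with the KO against WT comparisons above.

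Between the ages in WT, the log2 level of Rec8 rose by 1.69 (SE 0.21, limma adjusted p = 8.49e-08), with every 49-day array above every 15-day array, as for 25.3% of all genes. It was the only one of the 7 to pass, while 83.1% of all genes did, 27.9% higher and 55.2% lower. The median of all tested probes was -0.54 in this comparison, so that Rec8 rose by 2.22 relative to it. Smc1b had every 49-day array below every 15-day array, which held for 49.4% of all genes, at a difference of -0.52 (SE 0.33, limma adjusted p = 0.147), which is 0.013 relative to the median probe and turned to 0.47 after cyclic loess. Without KO 49-day replicate D, which again enters only the shared spread, Smc1b (limma adjusted p = 1.07e-04), Sycp1 (-0.62, limma adjusted p = 0.00523) and Syce2 (0.42, limma adjusted p = 0.0431) passed as well, against 85.5% of all genes. The Sycp1 difference was -0.088 relative to the median probe and turned to 0.16 after cyclic loess.

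In KO testis none of the 7 genes passed between the ages by limma, nor at an unadjusted p under 0.05, against 58.2% of all genes, 24% higher and 34.3% lower. Rec8 differed by 0.36 (SE 0.21, limma adjusted p = 0.137), so its group means ordered as KO 15 days (9.20), WT 15 days (9.21), KO 49 days (9.57) and WT 49 days (10.90), where the step from KO to WT at 49 days passed, the steps between genotypes at 15 days and between ages in KO did not, and KO at 49 days was not tested against WT at 15 days. Without replicate D Stag3 (0.70, limma adjusted p = 8.57e-05), Sycp2 (0.74, limma adjusted p = 0.00655) and Rec8 (0.51, limma adjusted p = 0.0217) passed, all higher at 49 days, against 68.7% of all genes. Mean levels of Sycp1 and Smc1b were highest in WT at 15 days, and those of Syce2, Rec8 and Stag3 in WT at 49 days, with and without replicate D. For Sycp2 the WT 15-day mean was the highest over all arrays (10.63), but KO at 49 days reached 10.66 without replicate D. For Syce1 the mean was highest in WT at 15 days (11.43) only through WT 49-day replicate D, at 5.76: the other 5 WT 49-day arrays, from 11.99 to 12.95, were above every WT 15-day array.

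General cohesin genes, which serve dividing and somatic cells as well, were counted from a list of 17, of which 15 were tested and Rad21 and Hdac8 were too dim. At 15 days 0 of 15 passed by limma (2 at an unadjusted p under 0.05), against 4.69% of all genes. The median log2 difference was 0.031, and Nipbl fell without KO 49-day replicate D. Fitting only the 12 arrays compared called Smc1a, Stag2 and Sgo1 higher and Nipbl lower, and array weights called Smc1a and Stag2 higher and Nipbl lower. At 49 days 7 rose and 3 fell, with a median of 0.55 on the log2 scale against 0.30 over all genes. Among all genes 46.8% were called higher and 26.5% lower, so both counts are near the shares called overall. After cyclic loess the split was 4 and 6, with 39.3% of all genes lower. The ring subunit genes Smc1a (1.54, limma adjusted p = 3.38e-06) and Smc3 (0.91, limma adjusted p = 7.48e-04) rose, as did Stag1 (1.08), Stag2 (1.54), the loader gene Mau2 (0.55), the cohesin-binding gene Pds5b (0.74) and the acetyltransferase gene Esco2 (0.85). A second probe gave -0.03 for Smc3 and ended the call of Stag1, and cyclic loess ended that of Pds5b. The loader gene Nipbl (-0.38), the separase gene Espl1 (-0.78) and the securin gene Pttg1 (-1.32) fell, of which Nipbl and Espl1 lost their calls when only the 12 arrays compared were fitted and Espl1 also with its second probe. Without KO 49-day replicate A 5 genes fell, with Pds5a and Wapl in addition, and without replicate F 5, with Cdca5 and Wapl. Cyclic loess and the fit to the 12 arrays also ended the calls of Esco2 and Mau2. Leaving out WT 49-day replicate A or C or KO 49-day replicate A, B, C or E ended the call of Esco2, and leaving out KO 49-day replicate C or D that of Mau2.

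The subunits replaced in meiosis were then set against their general counterparts within each array, as a description with no test, since these pairs were chosen after the values were seen. Only changes of a ratio are given, since the levels of different probes cannot be compared. At 49 days the log2 ratio of Smc1b to Smc1a was lower in KO, with a difference of -1.75 (SD 1.70 in KO and 0.134 in WT, n = 6 each) and of -1.08 without replicate D. Relative to the WT mean the KO arrays lay between -5.10 and -0.48, and none overlapped the WT arrays. The ratio of Stag3 to Stag2 differed by -2.03 and that of Stag3 to Stag1 by -1.58, each with no overlap, and by -1.50 and -0.98 without replicate D. Smc1a, Stag1 and Stag2 were themselves higher in KO at 49 days with no overlap. How often the ratios of other gene pairs do not overlap was not counted at either age, so the separation has no background share. At 15 days the ratios differed by -0.83 for Smc1b to Smc1a, -0.98 for Stag3 to Stag2 (neither with overlap) and -0.58 for Stag3 to Stag1 (groups overlapping). All 6 differences were below 0 on 4 of 4 slides, which follows from the lack of overlap except for Stag3 to Stag1 at 15 days. At 49 days the rise of the general subunits and, on replicate D, the low level of the meiotic ones both enter the ratio, and the makeup of the tissue and a change within cells cannot be told apart.

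**Figure D4:**
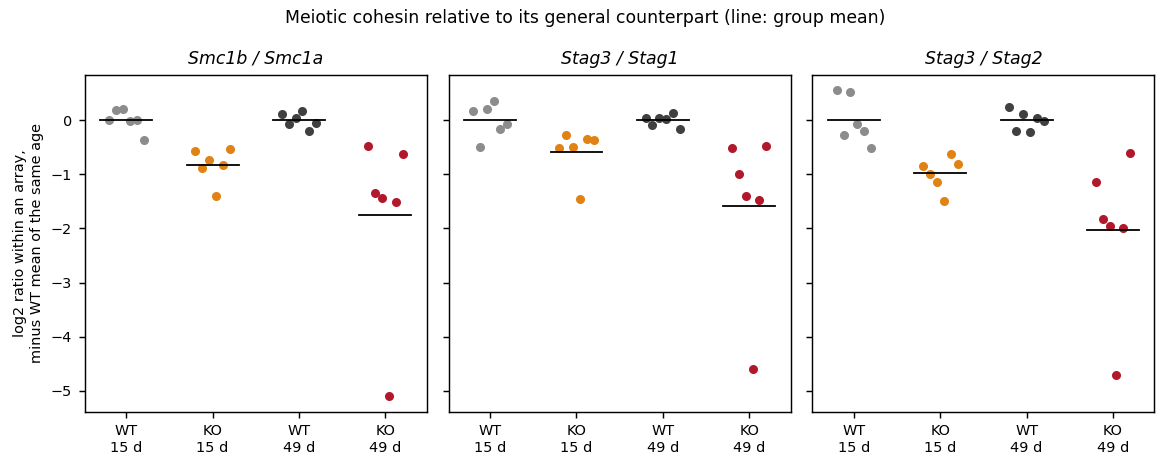
Log2 ratio of a meiotic cohesin gene to its general counterpart within each array, minus the WT mean of the same age (y axis), for WT and KO at 15 and 49 days (x axis). Points are arrays and lines group means; the 6 KO 49-day arrays lie from -5.10 to -0.48 for Smc1b to Smc1a, below all WT arrays.

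Other genes of the synaptonemal complex and the meiotic axis were counted from a list of 24, of which 17 were tested. At 15 days 3 fell and 0 rose, against 3.59% of all genes lower and 1.1% higher. The median difference was -0.75 on the log2 scale against 0.0043 over all genes. Kash5, which ties telomeres to the motor dynein at the nuclear envelope, fell by 1.69 (limma adjusted p = 0.00483) and kept its call in all 36 alternative fits. Meikin, a meiosis I kinetochore regulator, was at -1.74 (limma adjusted p = 0.0381), with 2 of 6 KO arrays above background, and Spo11, whose product makes the DNA breaks that start recombination, at -1.47 (limma adjusted p = 0.0496). These 2 calls were fragile: Meikin lost its call in 7 and Spo11 in 21 of the 24 fits that leave out 1 array, and in 4 and 6 of the 12 other alternatives. Without KO 49-day replicate D 10 of the 17 fell, against 7.98% of all genes lower. Only 1 fell without WT 15-day replicate A, B or C or KO 15-day replicate A, D, E or F.

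At 49 days 4 of the 17 genes of that list rose and 1 fell, with a median of -0.22. Both counts are below the shares called over all genes, 46.8% higher and 26.5% lower. After cyclic loess 2 rose and 7 fell, with 39.3% of all genes lower. Sun2, a nuclear envelope partner of KASH5 also made in somatic cells, rose by 1.49 (limma adjusted p = 1.74e-05), and Tex11, an X-linked crossover gene, by 1.17 (limma adjusted p = 0.00474, lost after cyclic loess). The gene 4930447C04Rik, for which RefSeq lists the synonym Six6os1 and whose product is a central element protein, rose by 1.07 (limma adjusted p = 3.13e-04), though its second probe gave -0.14. Sun1 was at 0.31 (limma adjusted p = 0.0421) and turned to -0.22 after cyclic loess; 8 of the 24 fits without 1 array and 6 of the 12 other alternatives ended its call. Meikin fell by 1.40 (limma adjusted p = 0.0123). Without replicate D 7 genes rose and 1 fell, against 45.7% of all genes higher and 25.3% lower. Without KO 49-day replicate A or F 3 genes fell, and 2 without B.

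The tested genes did not share 1 profile. After each gene was centred on its own mean, Stag3 (0.26), Smc1b (0.28), Sycp2 (0.35), Sycp1 (0.37) and Syce2 (0.38) had the smallest root mean square difference in log2 from the median profile of the 7 over 24 arrays, while Rec8 (0.79) and Syce1 (2.27) lay further away. That median profile was -2.68 on KO 49-day replicate D and between -0.68 and 0.67 on the other 23 arrays. Of 12159 other genes compared over the same arrays, the 5 nearest to the profile were Fancd2 (0.22), of DNA crosslink repair, Ccdc172 (0.22), Dbf4 (0.22), of DNA replication start, Cdca8 (0.24), of the chromosomal passenger complex, and Depdc1b (0.25). In the KO 49-day group the lowest log2 levels of these 5 genes ran from 5.29 for Depdc1b to 9.15 for Cdca8, below every array of the other groups. This follows from choosing them for nearness to a profile that is low on KO 49-day replicate D, and is not a separate result.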

How the data were processed

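RNA was extracted from testis with Trizol, per the labels' protocols. Each of 24 samples was read on 1 array of a 1-colour Illumina mouse expression beadchip. The deposited linear intensity table (45278 probes, 956 control rows, not normalized) was the starting point; the authors' second table holds log2 values, which log2 and quantile normalization of the intensities gave to within 3.62e-05. The scanner software is not given in the sources used here. Intensities were corrected with normexp from 946 dim control rows (offset 16) and quantile normalized on the log2 scale with limma 3.58.1 in R 4.3.3. The brightest probes, a share of 0.5 (22639 probes), were tested, and a gene is represented by its brightest tested probe. Median intensity was 223.9 to 278.7 per array, and 6 arrays per group limit the precision.

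One linear model with a mean per group was fitted to all 24 arrays (lmFit, eBayes; two-sided, Benjamini-Hochberg over all tested probes, threshold 0.05), and the code was tested on simulated data. Gene names came from a platform annotation updated through a GRCm38.p6 table. Named genes are all 9 members with every probe, Nsun2, each gene of the 2 comparison lists past the threshold in KO against WT at 15 or 49 days, and the 5 other genes nearest in profile. Single marker genes are named only beside their list counts. Dim or untested list genes and some neighbours of Syce1 were named after their values were seen. The members, lists and tests were chosen with earlier results of these data known. Slides are the chips named in the sample titles. Alternatives were another background correction, the authors' log2 values, scale and cyclic loess normalization, no filter, a second probe, the 12 arrays of a comparison, array weights, slide and replicate blocks, and leaving out each array. Leaving out WT 15-day replicate A with KO 15-day replicate B, and the alternatives for lists and ratios, were added after seeing the data. On these 2 arrays the mean log2 level of spermatid markers was the highest of the group, 6.75 and 7.55, against group medians of 5.83 and 5.67. WT 15-day replicate A was also the highest WT array of that age for Rec8 (9.97). The reason for these levels was not tested.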

Additional observations from a re-analysis of the deposited data

Results flagged for a closer look

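A group of 6 arrays was marked when its highest or lowest array was far from the rest by Dixon's gap test, which marks about 1 in 20 groups by chance. Among the 28 groups of the 7 tested genes 9 were marked, 100 groups were examined in all and 18 were marked. All genes were read on the same arrays, so the marks are not independent and their number cannot be set against that rate. Replicate D of KO at 49 days and at 15 days recurs among them. The lowest array was KO 49-day replicate D for Stag3 (10.36), Smc1b (9.56), Sycp2 (7.03), Sycp1 (5.66), Kash5 (8.29), Spo11 (9.38) and Espl1 (7.78) on the log2 scale. KO 15-day replicate D was lowest for Stag3 (11.84), Kash5 (7.94), Spo11 (8.67) and Sun1 (11.07). Syce1 had a low array in WT at 15 days (replicate E, 10.70), in KO at 15 days (replicate A, 5.63) and in WT at 49 days (replicate D, 5.76). Rec8 was lowest on WT 49-day replicate A (10.61) and Pttg1 on WT 49-day replicate E (8.77), while Stag1 was highest on WT 49-day replicate F (8.80) and Mau2 on WT 15-day replicate A (11.02).

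The KO effect differed between the ages for 10 of 25 named genes, against 52.9% of all genes. The test was the limma contrast of the effects (49 minus 15 days, adjusted over all tested probes). Rec8 differed by -1.33 on the log2 scale. The others were above 0: 4930447C04Rik 1.42, Sun2 1.20, Smc1a 1.16, Stag2 1.12, Stag1 1.07, Smc3 0.93, Mau2 0.76, Sun1 0.60 and Pds5b 0.54. Each of these others was named because it passed in KO against WT at 15 or 49 days. Those effects are part of this contrast, so passing it and the shared sign follow in part from the choice of genes. List genes that passed only this contrast are left out by the same rule.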

How the results depend on the processing

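With 7 tested genes, the counts past the threshold were 0 (KO effect at 15 days), 2 (KO effect at 49 days), 1 (difference of these effects), 1 (WT ages) and 0 (KO ages), and leaving out 1 array gave 0 to 3, 2 to 3, 1 to 5, 1 to 4 and 0 to 3. In the same order array weights, which lean on KO 49-day replicate E (weight 7.24 against 0.0769 to 1.05 for the other 5), gave 4, 4, 4, 4 and 3. Cyclic loess gave 4 at 49 days, 2 for the difference, 3 for the WT ages and 1 for the KO ages, the 12 arrays compared gave 3 at 15 days and 4 for the WT ages, and the second brightest probe gave 2 for the difference and 1 for the KO ages. The cause of these shifts was not tested beyond what the settings change. The letters A to F did not pair the samples (3 of 12 correlations of deviations over 0.1, range -0.208 to 0.19, 1 sample nearest its own letter), and the replicate block gave 0, 2, 1, 1 and 0. The 6 differences of cohesin ratios, of pairs chosen after their values were seen, were below 0 in 16 alternatives each. Where the KO and WT ratios did not overlap, leaving out 1 array cannot turn the sign, so those runs are no check of it. These alternatives were other background correction or normalization and leaving out 1 array of that age. No second probe was tried for the ratios.

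Signs turned for values near 0 or resting on 1 array. Rec8 at 15 days was 0.022 (scale), 0.14 (array weights), 0.013 (slide as a random block), 0.12 (without WT 15-day A and KO 15-day B) and -0.087 to 0.15 leaving out 1 array. At 49 days Smc1b was 0.32 (array weights; -0.35 to 0.26 leaving out 1 array), Sycp2 0.11 (second probe; -0.64 to 0.29) and Sycp1 0.030 (no background correction and authors' values) and 0.16 (array weights; -0.38 to 0.42). For the difference of the KO effect Stag3 was -0.45 (scale), -0.75 (cyclic loess) and -0.054 to 0.54, Smc1b -0.18 (scale) and -0.52 (cyclic loess), Syce1 0.63 (slide as a fixed block) and -1.44 to 0.48, and Sycp2 -0.16 (cyclic loess). Between WT ages cyclic loess gave Smc1b 0.47, Syce1 0.79, Sycp2 0.54 and Sycp1 0.16, the second probe gave Sycp2 0.044, and Syce1 was 0.078 (no background correction and authors' values), 0.012 (scale) and -0.58 to 0.86. Between KO ages Smc1b was 0.21 (array weights) and -0.42 to 0.19, Syce1 -1.44 to 0.25, Sycp2 -0.18 to 0.74, and Sycp1 0.0058 (no background correction and authors' values), 0.20 (cyclic loess), 0.087 (array weights) and -0.41 to 0.39. Signal near background limits Sycp3, Tex12 and the second Sycp2 probe.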
